A study of Caenorhabditis elegans with 18 samples.

Results

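PIWI-interacting RNAs (piRNAs) were taken as all 15363 features that the authors' small RNA table classes as piRNA, of 25899 features in that table, and their levels were compared between *tcer-1* mutants and wildtype *C. elegans*. The groups were *tcer-1(tm1452)* (strain CF2166), *tcer-1(glm27)* (strain AGP278) and wildtype (N2), with 3 biological replicates each and so 9 small RNA libraries. All were whole gravid hermaphrodites raised for 72 h at 20 °C on OP50 from synchronized L1 larvae, and small RNAs of 16 to 30 nt were treated with polyphosphatase before cloning. *tcer-1(tm1452)* animals are described in the study as developing asynchronously, whereas *tcer-1(glm27)*, a CRISPR deletion of the gene, does not show this. In 9 mRNA libraries of these genotypes, *tcer-1* itself averaged 949 ± 82.2 normalized counts in *tcer-1(tm1452)* animals and 498 ± 29.3 in *tcer-1(glm27)*, against 6085 ± 239 in wildtype (SD, n = 3 each).

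In *C. elegans*, piRNAs are also called 21U-RNAs, because they are 21 nt long and mostly begin with a uridine. Each is made in the germline from its own short RNA polymerase II transcript. Most loci carry an 8-base motif in the DNA a short way upstream of the piRNA, and the great majority lie in a pair of broad clusters on chromosome IV. The precursor is trimmed at both ends, methylated at its 3′ end and loaded into the Piwi Argonaute PRG-1, which recognises target transcripts by imperfect pairing and directs the production of secondary 22G-RNAs against them.

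All 15363 identifiers matched the Ensembl annotation of genome build WBcel235, each with 21 bases. Of the loci, 14784 (96.2%) began with T in the genome, and 14714 (95.8%) lay on chromosome IV. Of these, 2827 lay between 4 and 7 Mb, called the smaller cluster here, and 11574 between 13 and 18 Mb, called the larger cluster. A further 313 lay elsewhere on IV and 649 on other chromosomes. The following sequences, read from the RefSeq genome of WBcel235, are shown because the comparisons turn on them: the 2 most abundant piRNAs, then the piRNA with the largest decrease in either allele, 5 others that fell in both alleles, and 5 that rose in *tcer-1(tm1452)*. They run 5′ to 3′ as DNA, with the first base of the piRNA in capitals.
21ur-5107: Tccgaattccgaattgaaact
21ur-552: Tcaaagctctgaagatttgcc
21ur-10492: Gagtttttctcgtcgatcgaa
21ur-3280: Tctcattgtgatgtagaccaa
21ur-10372: Tctactgttgttcaagaacat
21ur-1929: Tctgtatcactgggaagttca
21ur-4181: Tatgtatagattggattttgg
21ur-4818: Ttattgctttattgaatcctg
21ur-7999: Ttctgtgaaatttcgattatc
21ur-669: Ttgtcgatcttttgaattctt
21ur-2592: Tccgattgtaacgagacttta
21ur-5980: Tttgacgtttctgagtaaaag
21ur-8083: Tctgactgtaaatttttttag

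The upstream motif was searched as CTGTTTCA, and its core as GTTTC, which lies inside it, on both strands of the 60 bases before each piRNA. CTGTTTCA was found before 34.1% of the piRNAs and in 6.63% of windows of the same length placed 1000 bases further upstream, and GTTTC before 76.3% and in 27.8% of such windows. On the piRNA's own strand the 7 letters TGTTTCA, with any base before them, were present for 7234 piRNAs (47.1%), and in 94.0% of these they began 42 to 48 bases before the piRNA. The next sequences show this arrangement for a pair of piRNAs of the smaller cluster that fell in both alleles and 3 of the larger cluster that rose in *tcer-1(tm1452)*, with the motif and, at the 3′ end, the piRNA in capitals. In 21ur-10372 an A stands before the 7 letters, and in the other 4 a C.
21ur-3280, chrIV:5759753-5759833, plus strand: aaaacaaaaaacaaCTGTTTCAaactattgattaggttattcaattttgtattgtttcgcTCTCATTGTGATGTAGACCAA
21ur-10372, chrIV:5328259-5328339, plus strand: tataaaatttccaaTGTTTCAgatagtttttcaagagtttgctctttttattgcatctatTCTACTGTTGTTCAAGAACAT
21ur-7999, chrIV:15705221-15705301, minus strand: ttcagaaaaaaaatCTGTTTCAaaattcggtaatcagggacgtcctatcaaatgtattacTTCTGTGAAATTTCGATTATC
21ur-669, chrIV:16575752-16575832, minus strand: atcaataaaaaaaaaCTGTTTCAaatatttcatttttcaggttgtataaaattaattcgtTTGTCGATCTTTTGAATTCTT
21ur-8083, chrIV:14514296-14514376, plus strand: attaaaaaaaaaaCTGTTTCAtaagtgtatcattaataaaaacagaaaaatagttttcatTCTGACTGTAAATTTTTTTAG

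Values are reads per 1000000 reads of the library (RPM), and the steps between low piRNA values placed the depth of the libraries at about 12.9 to 16.0 reads per RPM, which is the depth of a library in units of 1000000 reads and 1 read for 0.0624 to 0.0774 RPM. piRNAs made up 2.52 to 6.08% of the RPM of 6 small RNA classes (piRNAs, miRNAs, 22G-RNAs of the WAGO and CSR-1 classes, and 26G-RNAs of the ALG-3/4 and ERGO-1 classes), or about 248065 to 511205 reads a library. Of the 15363 piRNAs, 4632 were listed above 0 in all 9 libraries, 6776 in 1 to 8 libraries, and 3955 were listed at 0 throughout, which at this depth allows a level of up to 0.0230 RPM (3 reads over all libraries; counting error only).

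The levels were spread over a wide range, with many faint piRNAs and few strong ones. A mean of 2 RPM or more was reached by 1911 piRNAs (12.4%), which carried 91.0% of the piRNA RPM, and 38 had a mean of 100 RPM or more and carried 19.6%. The 10 most abundant held 7.91% and the 100 most abundant 34.8%, and 217 piRNAs were enough for 50%. At the other end, 6132 piRNAs had a mean above 0 but under 0.2 RPM and together held 1.11%. Presence followed the level: only 9 piRNAs were listed above 0 in all 3 *tcer-1(tm1452)* libraries and no other, 7 in all 3 *tcer-1(glm27)* libraries and no other, and 25 in all 3 wildtype libraries and no other, with means of 0.297 RPM or less. No abundant piRNA was therefore confined to 1 genotype.

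The 6 piRNAs of highest mean all lay in the larger cluster, and none of them was called in either allele. 21ur-5107, the most abundant, stood at 399, 421 and 254.8 RPM in *tcer-1(tm1452)* and 422, 367 and 403 RPM in *tcer-1(glm27)*, against 284, 307 and 341 RPM in wildtype. 21ur-552 had 322, 337 and 160 RPM in *tcer-1(tm1452)* and 392, 310 and 329 RPM in *tcer-1(glm27)*, against 338, 293 and 369 RPM in wildtype. The mutant and wildtype libraries overlapped for 21ur-552, and for 21ur-5107 only the *tcer-1(glm27)* libraries all lay above those of wildtype. Without *tcer-1(tm1452)* replicate 3, 21ur-5107 was higher in both alleles, by 0.40 and 0.36 on the log2 scale. The limma adjusted p were then 0.000724 and 0.000709, against 0.416 and 0.125 with all libraries. The other 4 were 21ur-3421, 21ur-7174, 21ur-1237 and 21ur-2290, and some of these differed by less than 2-fold. 21ur-2290 had 152, 157 and 203 RPM in *tcer-1(tm1452)* and 274, 216.5 and 220.3 RPM in *tcer-1(glm27)*, against 303, 225 and 267 RPM in wildtype, with *tcer-1(tm1452)* below wildtype in all libraries (log2 difference -0.64, limma adjusted p = 0.00797). 21ur-7174 had 273, 263 and 294 RPM in *tcer-1(tm1452)* and 249, 177 and 188 RPM in *tcer-1(glm27)*, against 215, 188 and 240.3 RPM in wildtype, with *tcer-1(tm1452)* above wildtype in all libraries (log2 difference 0.37, limma adjusted p = 0.0479). 21ur-1237 had 259, 246 and 95.7 RPM in *tcer-1(tm1452)* and 242, 198 and 234 RPM in *tcer-1(glm27)*, against 259, 260.3 and 271 RPM in wildtype, with each *tcer-1(glm27)* library below wildtype (log2 difference -0.23, limma adjusted p = 0.597, and 0.00741 without *tcer-1(tm1452)* replicate 3). 21ur-3421 averaged 324 ± 59.5 RPM in *tcer-1(tm1452)* and 265 ± 47.6 RPM in *tcer-1(glm27)*, against 346 ± 45.9 RPM in wildtype (SD, n = 3), and its libraries overlapped.

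One library stood apart before any comparison. *tcer-1(tm1452)* replicate 3 held 15470 RPM of piRNAs, against 33437 and 32889 RPM in replicates 1 and 2 of that genotype, and 1576 of its piRNAs reached 1 RPM, against 3053 and 3021. Over the 1911 piRNAs with a mean of 2 RPM or more, its values differed from replicate 1 by over 2-fold for 67.1%, whereas replicates 1 and 2 differed so for 0.0% and the pairs within *tcer-1(glm27)* and wildtype for 0.0523 to 0.314%. On the scale of log2(RPM + 1), the piRNAs of replicate 3 lay a median of 1.28 below the mean of replicates 1 and 2, yet 96 lay above it. Pearson's r across these piRNAs, which are not independent replicates, was 0.880 and 0.898 with replicates 1 and 2, against 0.978 to 0.989 for the other pairs within a genotype. The same library differed from replicate 1 by over 2-fold for 31.1% of miRNAs but 0.242% of WAGO 22G-RNA loci. The main results that involve *tcer-1(tm1452)* are therefore given with and without it.

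**Figure D1:**
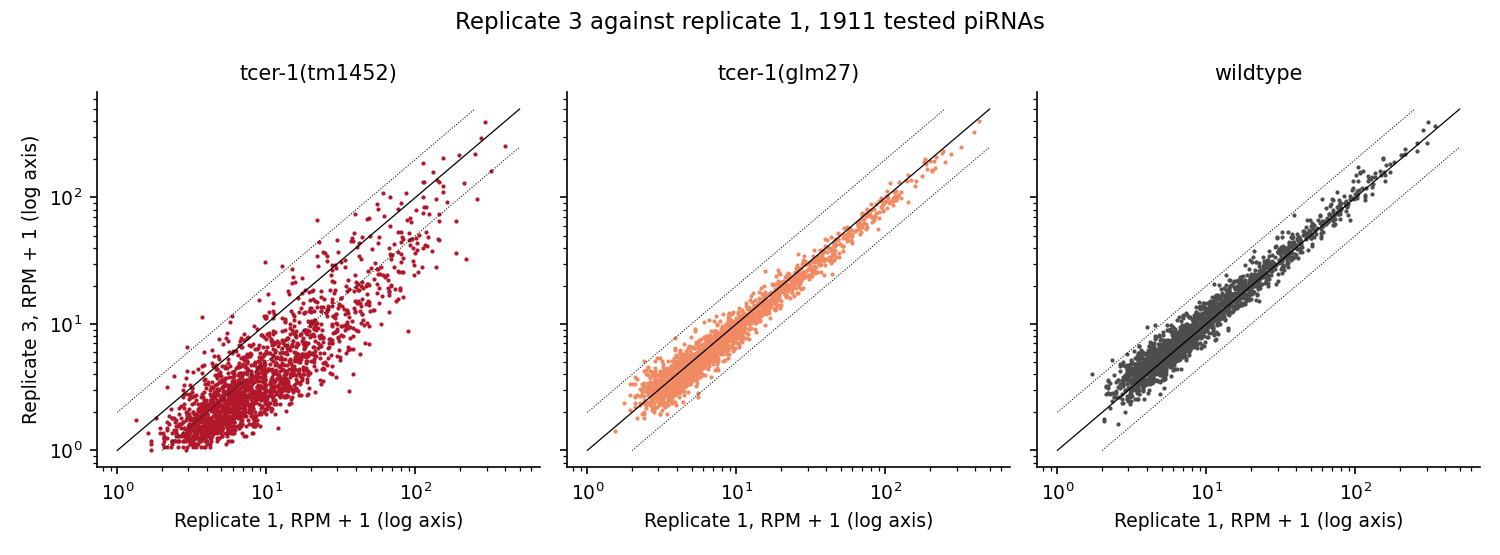
RPM + 1 of 1911 piRNAs in replicate 3 (vertical, log axis) against replicate 1 (horizontal, log axis) for *tcer-1(tm1452)*, *tcer-1(glm27)* and wildtype, with the line of equality and dotted lines at 2-fold. In *tcer-1(tm1452)* the points are scattered mostly below the line, 67.1% of them past a 2-fold difference, and in the other genotypes they lie along it.

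In the remaining pairs the spread was smaller, and above that of counting. The SD of the difference in log2(RPM + 1) between a pair of replicates was 0.199 for *tcer-1(tm1452)* replicates 1 and 2, 0.217 to 0.276 in *tcer-1(glm27)* and 0.249 to 0.288 in wildtype, where counting error at these depths alone would give 0.180 for that *tcer-1(tm1452)* pair, 0.191 to 0.195 in *tcer-1(glm27)* and 0.180 to 0.183 in wildtype. The median coefficient of variation over 3 replicates was 54.3% in *tcer-1(tm1452)*, 15.6% in *tcer-1(glm27)* and 12.5% in wildtype. The 4 piRNAs with the largest replicate SD on the scale of log2(RPM + 1), 21ur-2446, 21ur-5457, 21ur-1569 and 21ur-3613, were all set by *tcer-1(tm1452)* replicate 3. 21ur-2446 had 34.9 and 37.2 RPM in replicates 1 and 2 and 1.93 RPM in replicate 3, and 21ur-5457 had 87.8, 78.6 and 7.73 RPM in the same order. By contrast, 21ur-7174 was not lower in replicate 3, and 21ur-3421 had 291, 289 and 393 RPM in these libraries, so that the deficit was not shared by every piRNA.

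As a class, piRNAs took 5.23, 5.17 and 2.52% of the RPM of the 6 classes in *tcer-1(tm1452)* and 5.19, 4.14 and 4.66% in *tcer-1(glm27)*, against 5.52, 5.63 and 6.08% in wildtype. The libraries of both mutants lay below those of wildtype, with differences of -1.44 and -1.08 percentage points (two-sided exact permutation test, p = 0.1 for each, the smallest that 3 libraries against 3 allow; 0.167 adjusted over 15 tests of this kind). Without *tcer-1(tm1452)* replicate 3 the first difference was -0.547 (exact p = 0.2). The separation also rested on the 10 most abundant small RNA features: without them the share was 7.55, 7.38 and 3.14% in *tcer-1(tm1452)* and 7.40, 5.89 and 6.75% in *tcer-1(glm27)*, against 7.06, 7.14 and 7.67% in wildtype, and the ranges of both mutants overlapped wildtype (exact permutation p = 0.8 and 0.3). The number of piRNAs at 1 RPM or more was 3053, 3021 and 1576 in *tcer-1(tm1452)* and 2688, 2435 and 2607 in *tcer-1(glm27)*, against 2869, 2979 and 3123 in wildtype. These counts lay below wildtype in each *tcer-1(glm27)* library (exact permutation p = 0.1), whereas those of *tcer-1(tm1452)* overlapped wildtype (exact permutation p = 0.7) and without replicate 3 averaged 3037, against 2990 in wildtype. In whole animals, fewer germ cells and less piRNA in each cannot be told apart.

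The 1911 piRNAs with a mean of 2 RPM or more were compared one by one on the scale of log2(RPM + 1), in a limma fit over 7376 small RNA features. A call required a Benjamini-Hochberg adjusted p under 0.05 and a 2-fold difference on that scale, which understates the change of faint piRNAs. In *tcer-1(tm1452)*, 290 piRNAs (15.2%) fell and 40 (2.09%) rose, where 10.9% of all features were called lower and 3.73% higher. The count was smaller in *tcer-1(glm27)*, where 82 piRNAs (4.29%) fell and 2 rose, against 9.08% of all features lower and 1.68% higher, so that the share of piRNAs called was below the background of the table in both directions. Scaling the libraries to equal upper quartiles gave *tcer-1(tm1452)* 143 lower and 66 higher piRNAs and *tcer-1(glm27)* 23 lower and 5 higher. The share of all features called at that scaling was not computed. Without *tcer-1(tm1452)* replicate 3 the counts in *tcer-1(tm1452)* were 139 lower and 88 higher (9.3 and 4.2% of all features), and 138 of the lower and 35 of the higher piRNAs were called in both fits. In *tcer-1(glm27)* the fit without that library gave 94 lower and 3 higher (9.25 and 1.7% of all features). Counted without a model, all 3 libraries lay below all of wildtype for 785 piRNAs of *tcer-1(tm1452)* and 816 of *tcer-1(glm27)*, where this held for 52.5 and 59.8% of all features, and above it for 90 and 46, where it held for 11.7 and 10.7% of all features.

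The share of piRNAs that fell was higher in the smaller than in the larger cluster in both alleles, although in *tcer-1(tm1452)* 140 of the 290 that fell lay in the larger cluster. Of the 176 tested piRNAs of the smaller cluster, 149 fell in the *tcer-1(tm1452)* and 75 in the *tcer-1(glm27)* mutant, and none rose in either (4 and 0 were higher at an unadjusted p under 0.05 in limma), with median log2 differences of -1.58 and -0.99. Of the 1728 tested piRNAs of the larger cluster, 140 fell and 39 rose in *tcer-1(tm1452)*, and 6 fell and 2 rose in *tcer-1(glm27)*, with medians of -0.55 and -0.26. Over all 7376 features, 10.9% were called lower for *tcer-1(tm1452)* and 9.08% for *tcer-1(glm27)*, with a median of -0.33 in each allele. The smaller cluster, with 9.21% of the tested piRNAs, thus held 51.4% of those that fell in *tcer-1(tm1452)* and 91.5% of those that fell in *tcer-1(glm27)*. Without *tcer-1(tm1452)* replicate 3, 119 of the 176 piRNAs of the smaller cluster and 19 of the 1728 of the larger cluster fell in that allele, with medians of -1.23 and -0.09. The counts also moved with the scaling: with equal upper quartiles, 120 of the smaller and 22 of the larger cluster fell in *tcer-1(tm1452)*, and 22 and 0 in *tcer-1(glm27)*.

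Summed over every piRNA, tested or not, the smaller cluster gave 1334, 1311 and 547 RPM in *tcer-1(tm1452)* and 1534, 1240 and 1389 RPM in *tcer-1(glm27)*, against 3027, 2992 and 3322 RPM in wildtype. The larger cluster gave 32034, 31504 and 14889 RPM in *tcer-1(tm1452)* and 30865, 24761 and 28147 RPM in *tcer-1(glm27)*, against 31723, 32449 and 34601 RPM in wildtype. The mutants' mean for the smaller cluster was 0.342 of wildtype in *tcer-1(tm1452)*, 0.425 without replicate 3, and 0.446 in *tcer-1(glm27)*, whereas for the larger cluster it was 0.794, 0.965 and 0.848.

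The share of piRNA RPM that came from the smaller cluster does not depend on how the libraries are scaled, since both clusters were sequenced together. It was 3.99, 3.99 and 3.54% in *tcer-1(tm1452)* and 4.73, 4.76 and 4.69% in *tcer-1(glm27)*, against 8.69, 8.43 and 8.75% in wildtype. Each mutant library lay at 3.54 to 4.76% and each wildtype library at or above 8.43%, and *tcer-1(tm1452)* replicate 3 lay next to the other mutant libraries. The means were 3.84 ± 0.261% for *tcer-1(tm1452)* and 4.73 ± 0.0334% for *tcer-1(glm27)*, against 8.62 ± 0.171% in wildtype (SD, n = 3; two-sided exact permutation test, p = 0.1 for each allele against wildtype and for the alleles against each other, the smallest possible; this comparison was chosen after its values had been seen). Among the piRNAs with a mean under 2 RPM, which entered no fit, the share was 11.8, 12.0 and 13.9% in *tcer-1(tm1452)* and 14.35, 13.95 and 13.9% in *tcer-1(glm27)*, against 22.7, 21.7 and 22.1% in wildtype.

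**Figure D2:**
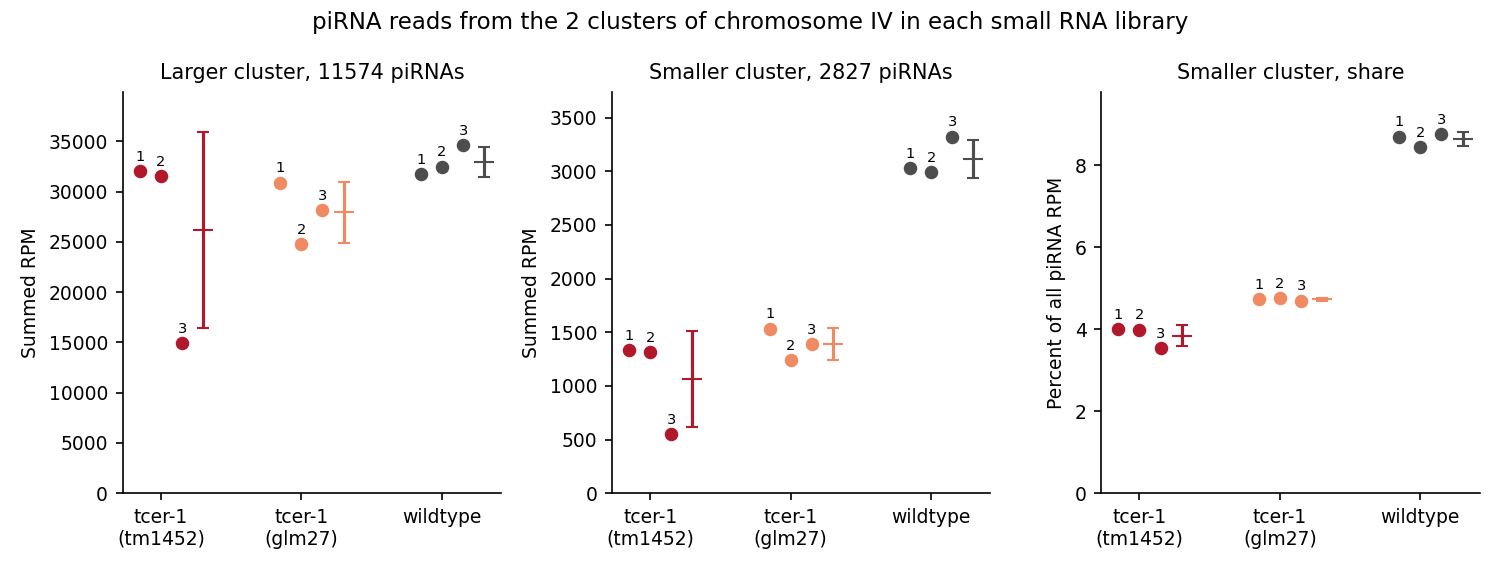
Summed RPM of the 11574 piRNAs of the larger cluster (left) and the 2827 piRNAs of the smaller cluster (centre), and the percent of all piRNA RPM that came from the smaller cluster (right), in each library of *tcer-1(tm1452)*, *tcer-1(glm27)* and wildtype. Points are libraries numbered by replicate and bars are mean ± SD of 3. The share is 3.54 to 4.76% in the 6 mutant libraries and 8.43 to 8.75% in the 3 wildtype libraries.

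The decrease was even along the smaller cluster. The 14, 118 and 44 tested piRNAs that started in its megabases 4, 5 and 6 had median log2 differences of -1.57, -1.56 and -1.61 in *tcer-1(tm1452)* (-1.30, -1.22 and -1.24 without replicate 3) and of -0.92, -0.98 and -1.02 in *tcer-1(glm27)*. It was also present on both strands, with medians of -1.57 and -1.59 for the plus and the minus strand in *tcer-1(tm1452)* (-1.23 and -1.29 without replicate 3) and of -0.96 and -0.999 in *tcer-1(glm27)*. At similar abundance the clusters still differed: among piRNAs of 2 to under 10 RPM the medians were -1.54 and -0.98 for 140 of the smaller cluster, against -0.50 and -0.27 for 1138 of the larger cluster. Without replicate 3 the medians of these groups in *tcer-1(tm1452)* were -1.22 and -0.07. Of the 176 piRNAs, 160 lay below the median of the larger cluster for *tcer-1(tm1452)* (167 without replicate 3) and 174 for *tcer-1(glm27)*. The gap between the medians of the clusters was -1.08 to -1.03 in *tcer-1(tm1452)* and -0.74 to -0.71 in *tcer-1(glm27)* over 5 ways of scaling the libraries. It was -1.14 in *tcer-1(tm1452)* without replicate 3, and it narrowed to -0.57 and -0.45 with a pseudocount of 5. With no filter on low values, when most piRNAs of either cluster are near 0 RPM, the gaps were -0.0090 and -0.026. The median of the larger cluster itself in *tcer-1(glm27)* was -0.26 as deposited and 0.07 with equal upper quartiles.

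The tested piRNAs averaged 37.2% GC in the smaller and 36.5% in the larger cluster, and CTGTTTCA preceded 30.1 and 29.9% of them. By annotation, 45.5% of the smaller cluster's tested piRNAs lay in introns and 49.4% between genes, against 32.3 and 64.6% in the larger cluster. Of the marker mRNAs, 8 genes of the female germline and oocytes summed to 144064 to 158380 normalized counts in *tcer-1(tm1452)* and 150071 to 163080 in *tcer-1(glm27)*, against 233987 to 247373 in wildtype. In the same order, 7 genes of the germline in general summed to 44663 to 46918 and 41482 to 45284, against 57576 to 58833. None of these 15 genes was called in limma and none was at 0. By adjusted p alone the 8 genes of the female germline and oocytes were lower in each mutant. So were 5 of the general germline genes for *tcer-1(tm1452)* and 6 for *tcer-1(glm27)*, where 34.1 and 27.6% of all mRNAs were lower by that measure. A list of 9 intestine and yolk genes summed to 949174 to 961641 in *tcer-1(tm1452)* and 1531730 to 1674180 in *tcer-1(glm27)*, against 1338710 to 1625130 in wildtype. By adjusted p alone *tcer-1(tm1452)* had 6 of these lower and 2 higher, and *tcer-1(glm27)* had 0 lower and 4 higher. Over all mRNAs, 35.3 and 33.2% were higher by that measure. With the 2-fold threshold, 1 of the 9 was called lower in *tcer-1(tm1452)*, where 7.51% of all mRNAs were, and none was called otherwise. The part of these RNAs in the decrease of piRNAs was not tested.

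**Figure D3:**
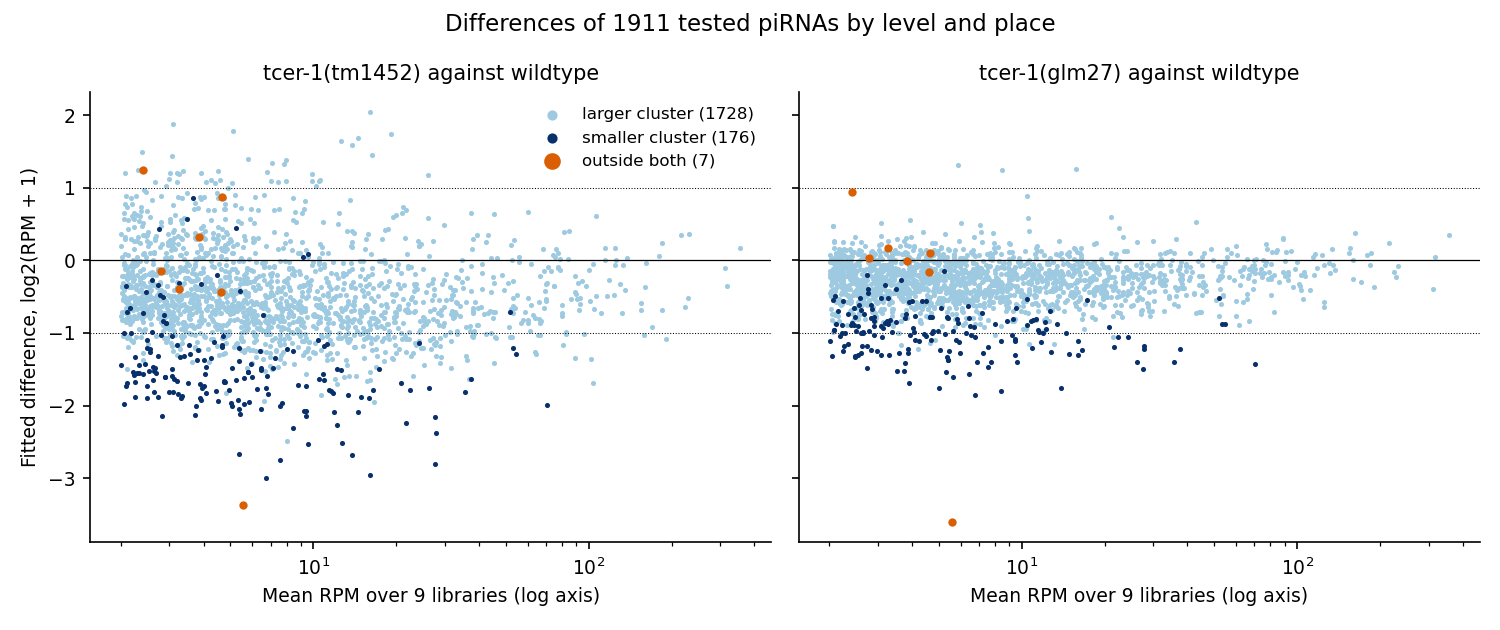
Fitted difference in log2(RPM + 1) from wildtype (vertical) against mean RPM over 9 libraries (horizontal, log axis) for 1911 piRNAs in *tcer-1(tm1452)* (left) and *tcer-1(glm27)* (right), with dotted lines at 2-fold. Points of the smaller cluster (176) lie mostly below those of the larger cluster (1728) at levels under 100 RPM, above which all 38 piRNAs are of the larger cluster, and of the 7 piRNAs outside both, 21ur-10492 lies lowest at -3.36 and -3.60.

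Calls in both alleles were made for 77 piRNAs in the downward direction and for none in the upward direction (4 were higher in both at an unadjusted p under 0.05 in limma), where 5.69 and 1.03% of all features were called. The 77 were 26.6% of those that fell in *tcer-1(tm1452)* and 93.9% of those that fell in *tcer-1(glm27)*, and both comparisons use the same 3 wildtype libraries. Of the 77, 73 lay in the smaller cluster, 3 in the larger one and 1 on another chromosome. No piRNA was called in opposite directions. The number lower in both moved with the scaling, to 20 with equal upper quartiles, 19 with median of ratios and 234 with equal miRNA totals. Shares of all features were not computed at those scalings. Without *tcer-1(tm1452)* replicate 3, 74 fell in both alleles and 1 rose (5.96 and 0.949% of all features).

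The largest decrease was outside both clusters. 21ur-10492 (chrII:13247294-13247314, minus strand) had 0.34, 0.81 and 0.75 RPM in *tcer-1(tm1452)* and 0.54, 0.19 and 0.41 RPM in *tcer-1(glm27)*, against 15.4, 15.2 and 16.4 RPM in wildtype. It was nearly absent from every mutant library, with log2 differences of -3.36 (standard error 0.16, limma adjusted p = 6.22e-07) and -3.60 (standard error 0.16, limma adjusted p = 4.97e-07), and its wildtype mean was 24.8 and 41.3 times those of the mutants. Unlike most piRNAs it begins with G in the genome, and it lies opposite an exon of the protein-coding gene *F15D4.5*. The 7 letters TGTTTCA are absent from the 60 bases before it, as for 976 of the 1911 tested piRNAs. WAGO 22G-RNAs also begin with G and run antisense to their targets, so that by its first base, length and strand a read of this sequence could be classed as either. The WAGO 22G-RNA feature of *F15D4.5* had 208, 214 and 324 RPM in *tcer-1(tm1452)* and 162, 162 and 154 RPM in *tcer-1(glm27)*, against 1968, 1949 and 1775 RPM in wildtype, with log2 differences of -2.96 and -3.57 (limma adjusted p = 9.51e-07 and 4.07e-07). The *F15D4.5* mRNA had 1645, 1643 and 1541 normalized counts in *tcer-1(tm1452)* and 1187, 1035 and 1087 in *tcer-1(glm27)*, against 82.2, 73.1 and 76.0 in wildtype. Whether 21ur-10492 is counted from 22G-RNAs of this gene was not tested. The other tested piRNA outside the clusters that was called, 21ur-10824 on chromosome III, had 3.36, 3.64 and 3.68 RPM in *tcer-1(tm1452)* and 2.63, 3.46 and 2.10 RPM in *tcer-1(glm27)*, against 1.56, 0.69 and 0.62 RPM in wildtype. It rose in *tcer-1(tm1452)* by 1.25 on the log2 scale (limma adjusted p = 0.00128) and was 0.95 higher in *tcer-1(glm27)*, under the 2-fold threshold; it was named after its values had been seen.

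The largest decreases in *tcer-1(tm1452)* within the smaller cluster were those of 21ur-3280, 21ur-6254, 21ur-5213, 21ur-6090 and 21ur-10372, all of which also fell in *tcer-1(glm27)*. 21ur-3280 (chrIV:5759813-5759833, plus strand, between annotated genes) had 1.34, 2.29 and 0.12 RPM in *tcer-1(tm1452)* and 3.71, 2.62 and 4.46 RPM in *tcer-1(glm27)*, against 13.9, 16.1 and 16.4 RPM in wildtype, and fell by 3.00 and 1.86 on the log2 scale (limma adjusted p = 0.000166 and 0.00248). 21ur-6254, in an exon of the aspartyl protease gene *asp-9* on the same strand, had 3.56, 4.85 and 1.87 RPM in *tcer-1(tm1452)* and 15.6, 10.8 and 11.2 RPM in *tcer-1(glm27)*, against 31.2, 33.8 and 31.2 RPM in wildtype. 21ur-5213, in an intron of the sodium leak channel gene *unc-77*, had 12.2, 10.2 and 2.56 RPM in *tcer-1(tm1452)* and 20.0, 16.6 and 20.6 RPM in *tcer-1(glm27)*, against 49.9, 54.3 and 62.3 RPM in wildtype. For each of these the 3 genotypes formed separate ranges, with *tcer-1(tm1452)* lowest and wildtype highest, as they did for 21ur-6090 and 21ur-10372, which had log2 differences of -2.76 and -2.67 in *tcer-1(tm1452)* and of -1.48 and -1.76 in *tcer-1(glm27)*. Since these 5 were chosen for their low *tcer-1(tm1452)* values, this order of the alleles is a description, with no test.

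Other piRNAs of the smaller cluster were named for their decrease in *tcer-1(glm27)* and in both alleles, and for these the alleles lay closer together. That choice favours piRNAs whose alleles are alike, so the closeness is a description, with no test. 21ur-4181, in an intron of *ehn-3*, had 1.95, 2.09 and 1.81 RPM in *tcer-1(tm1452)* and 1.62, 2.56 and 3.25 RPM in *tcer-1(glm27)*, against 9.55, 12.84 and 9.5 RPM in wildtype. 21ur-1929 had 3.89, 3.23 and 1.68 RPM in *tcer-1(tm1452)* and 4.72, 4.10 and 4.40 RPM in *tcer-1(glm27)*, against 15.8, 19.6 and 18.4 RPM in wildtype. The wildtype means were 5.45 and 4.29 times those of *tcer-1(tm1452)* and *tcer-1(glm27)* for 21ur-4181 and 6.11 and 4.06 times for 21ur-1929. 21ur-4818, in an intron of the chemoreceptor gene *srsx-15* on the other strand, had log2 differences of -1.92 and -1.69. The libraries of the alleles overlapped for 21ur-4181 and 21ur-4818, and for 21ur-1929 those of *tcer-1(tm1452)* all lay below those of *tcer-1(glm27)*.

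**Figure D4:**
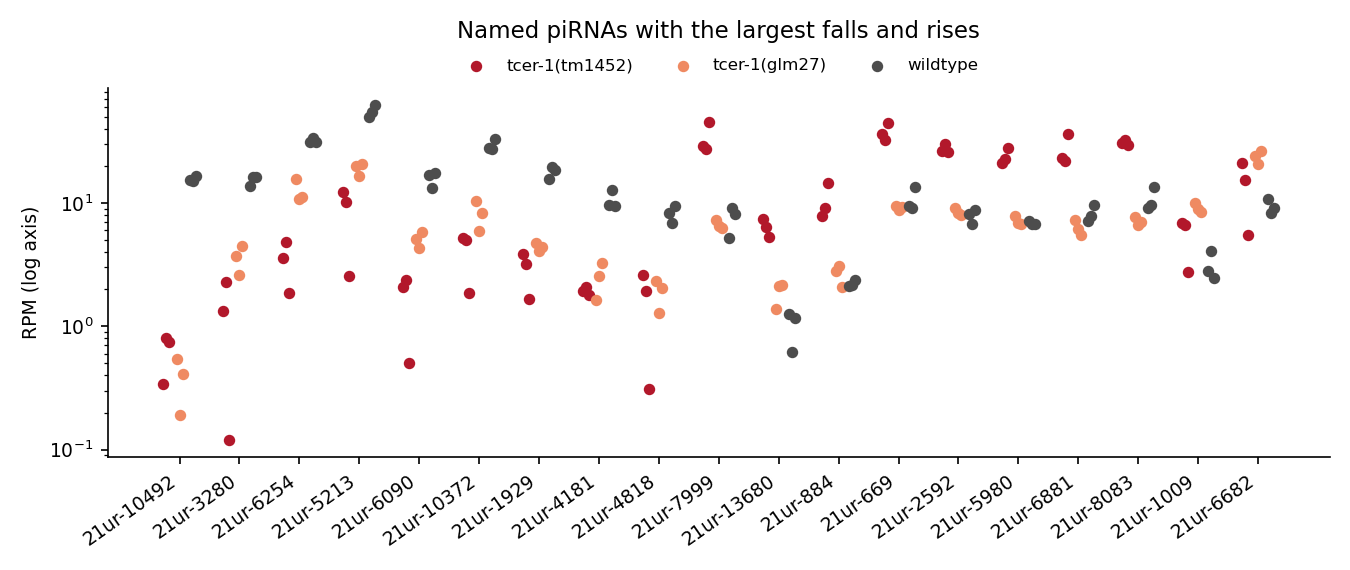
RPM (log axis) of the piRNAs with the largest falls (left) and rises (right) in the 3 libraries each of *tcer-1(tm1452)*, *tcer-1(glm27)* and wildtype. Every fall shown is seen in both mutants, the rises from 21ur-7999 to 21ur-8083 are seen in *tcer-1(tm1452)*, and 21ur-1009 and 21ur-6682 rose in *tcer-1(glm27)*.

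The 40 piRNAs that rose in *tcer-1(tm1452)* were, with 1 exception, in the larger cluster. 21ur-7999 had 28.8, 27.5 and 45.5 RPM in *tcer-1(tm1452)* and 7.27, 6.46 and 6.22 RPM in *tcer-1(glm27)*, against 5.16, 9.16 and 8.11 RPM in wildtype. 21ur-669 had 36.1, 32.5 and 44.5 RPM in *tcer-1(tm1452)* and 9.44, 8.77 and 9.20 RPM in *tcer-1(glm27)*, against 9.40, 9.16 and 13.4 RPM in wildtype. In both cases the *tcer-1(tm1452)* libraries, replicate 3 included, all lay above the other 6, with log2 differences from wildtype of 2.04 and 1.74 (limma adjusted p = 0.000126 and 3.03e-05). 21ur-13680, which begins with G, averaged 6.36 ± 1.05 RPM in *tcer-1(tm1452)*, 1.89 ± 0.431 RPM in *tcer-1(glm27)* and 1.02 ± 0.348 RPM in wildtype. Its mean over all libraries reached 2 RPM only through *tcer-1(tm1452)*. In *tcer-1(glm27)* it was 0.52 higher than wildtype on the log2 scale (limma adjusted p = 0.0484), under the 2-fold threshold, with all libraries above those of wildtype. 21ur-2592, 21ur-5980 and 21ur-884 had log2 differences of 1.68, 1.64 and 1.79 and differed from wildtype by 0.09, 0.04 and 0.17 in *tcer-1(glm27)*. Without replicate 3 these 6 were called as well, at 1.52 to 1.98.

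Among the piRNAs that rose in *tcer-1(tm1452)*, those with the 7 letters upstream all had C before them. In *C. elegans*, a C at this first position of the upstream motif is known to be common among piRNAs of the male germline. Of the 552 tested piRNAs with C before TGTTTCA, 25 (4.53%) rose in *tcer-1(tm1452)*. The number was 0 of the 383 with A, G or T at that position and 15 (1.54%) of the 976 without the 7 letters. Over all features 3.73% were called higher, so the share with C lay near that of the table and the other shares lay below it. Without replicate 3, 48 (8.70%) of the 552 rose, against 3 of the 383 and 37 (3.79%) of the 976, where 4.2% of all features were higher. Within the larger cluster, the median log2 difference was -0.40 for the 498 piRNAs with C and -0.62 for the 218 with A, or -0.0029 and -0.12 without replicate 3. In the smaller cluster the medians were -1.53 for C and -1.73 for A. CTGTTTCA on either strand preceded 62.5% of the 40, against 29.9% of all tested piRNAs. The division by this base was made after the values had been seen and has no test.

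Sperm-linked RNAs differed in the same libraries. Those 26G-RNAs that bind ALG-3/4, Argonautes of spermatogenesis, summed to 1247, 1400 and 1732 RPM in *tcer-1(tm1452)* and 296, 310 and 259 RPM in *tcer-1(glm27)*, against 49.1, 53.4 and 65.8 RPM in wildtype. In the mRNA libraries, 43 sperm genes summed to 22213 to 25504 normalized counts in *tcer-1(tm1452)* and 4577 to 5840 in *tcer-1(glm27)*, against 687 to 952 in wildtype, and 38 and 35 of the 38 tested were called higher, where 20.1 and 14.5% of all mRNAs were, with 3 of the 43 at 0 throughout. All 5 body wall muscle genes were also called higher in *tcer-1(tm1452)*. In *tcer-1(glm27)* none passed the 2-fold threshold, but 5 were higher by adjusted p alone, where 33.2% of all mRNAs were, with sums of 91969 to 100185 and 37226 to 41546, against 24135 to 32053 in wildtype. Their part in the rise of piRNAs was not tested, and the developmental asynchrony of *tcer-1(tm1452)* cannot be told apart from the genotype.

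In *tcer-1(glm27)* the 2 piRNAs that rose were 21ur-1009 and 21ur-6682, both of the larger cluster. 21ur-1009, which lies within an annotated snoRNA on its strand and in an intron of *pkd-2* on the other, had 6.85, 6.60 and 2.74 RPM in *tcer-1(tm1452)* and 10.1, 8.96 and 8.45 RPM in *tcer-1(glm27)*, against 2.83, 4.10 and 2.47 RPM in wildtype. 21ur-6682, which begins with C, had 21.2, 15.4 and 5.49 RPM in *tcer-1(tm1452)* and 24.2, 20.9 and 26.5 RPM in *tcer-1(glm27)*, against 10.8, 8.33 and 9.04 RPM in wildtype. Their log2 differences from wildtype were 1.31 and 1.26 (limma adjusted p = 0.00462 and 0.0246). For each of them all *tcer-1(glm27)* libraries lay above those of wildtype. The fit shares its estimate of spread over all libraries, and without *tcer-1(tm1452)* replicate 3 the limma adjusted p were 1.32e-05 and 1.07e-05. The call of 21ur-6682 was lost without *tcer-1(glm27)* replicate 1 or 3 or wildtype replicate 2 or 3, with adjusted p of 0.0639 to 0.0789 and a difference of 1.18 to 1.25, and with no filter on low values (adjusted p = 0.112). With equal miRNA totals neither piRNA reached a 2-fold difference (0.99 for 21ur-1009 and 0.89 for 21ur-6682), nor did 21ur-1009 with a pseudocount of 5 (0.80).

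Set against each other, the alleles differed for 69 piRNAs: relative to *tcer-1(glm27)*, *tcer-1(tm1452)* had 23 lower and 46 higher piRNAs, where 2.43% of all features were lower and 3.93% higher. The balance rested on *tcer-1(tm1452)* replicate 3, without which 2 were lower and 129 higher (2.2 and 4.75% of all features). The 46 higher piRNAs included 25 with C before the 7 letters and 1 with another base there. 21ur-8083 had 30.7, 32.6 and 29.7 RPM in *tcer-1(tm1452)*, against 7.66, 6.59 and 7.03 RPM in *tcer-1(glm27)*, while wildtype had 9.12, 9.72 and 13.5 RPM. 21ur-6881 had 23.1, 22.1 and 36.2 RPM in *tcer-1(tm1452)*, against 7.27, 6.21 and 5.48 RPM in *tcer-1(glm27)*. Among the lower ones, 21ur-6254 differed by -1.66 (standard error 0.24, limma adjusted p = 0.00114) and by -1.37 without replicate 3.

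The mRNAs of the piRNA machinery were measured in the same genotypes. Of 20 genes on a list of transcription factors, processing enzymes and Piwi proteins, by adjusted p alone *tcer-1(tm1452)* had 14 lower and 0 higher and *tcer-1(glm27)* had 17 lower and 1 higher, where 34.1 and 27.6% of all 17037 mRNAs were lower and 35.3 and 33.2% higher by that measure. The changes were small, with medians of -0.30 and -0.31 against 0.02 and 0.13 over all mRNAs, and only 1 gene reached the 2-fold threshold, which 7.51% of mRNAs did in the downward direction for *tcer-1(tm1452)* and 2.07% for *tcer-1(glm27)* (20.1 and 14.5% upward). That gene was *unc-130*, which encodes a forkhead transcription factor. It had 14.3, 11.8 and 7.63 normalized counts in *tcer-1(tm1452)* and 56.9, 70.0 and 53.4 in *tcer-1(glm27)*, against 26.5, 28.2 and 37.5 in wildtype, and so fell by 1.40 on the log2 scale in the first allele (limma adjusted p = 0.000248) and was 0.95 higher in the second (limma adjusted p = 0.00564).

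*prde-1*, whose product acts with SNPC-4, TOFU-4 and TOFU-5 at piRNA promoters, had 641, 665 and 659 normalized counts in *tcer-1(tm1452)* and 600, 536 and 560 in *tcer-1(glm27)*, against 551, 622 and 620 in wildtype. Its *tcer-1(tm1452)* libraries all lay above wildtype and its *tcer-1(glm27)* libraries overlapped it, and neither difference, of 0.13 and -0.08 on the log2 scale, passed the test (limma adjusted p = 0.0972 and 0.331). *prg-1*, which encodes the Piwi Argonaute, had 7981, 8840 and 8355 in *tcer-1(tm1452)* and 7975, 7266 and 7244 in *tcer-1(glm27)*, against 9833, 10270 and 10124 in wildtype, so that all mutant libraries lay below wildtype, by 0.26 and 0.43 on the log2 scale. Its close copy *prg-2* had log2 differences of -0.56 and -0.87 (limma adjusted p = 5.48e-05 and 1.35e-06). *prg-1* and *prg-2* share sequence, and reads may have been divided between them. *henn-1*, whose product methylates piRNA 3′ ends, averaged 1233 ± 40.2 in *tcer-1(tm1452)* animals and 1342 ± 76.3 in *tcer-1(glm27)*, against 1641 ± 44.1 in wildtype (SD, n = 3). Of the precursor-binding PETISCO complex, *ife-3* fell by 0.54 and 0.72, *tofu-6* by 0.41 and 0.53, *pid-1* by 0.30 and 0.38 and *pid-3* by 0.35 and 0.23. For *erh-2* the fall was 0.71 in *tcer-1(tm1452)*, and its difference of -0.13 in *tcer-1(glm27)* did not pass (limma adjusted p = 0.0711). The listed gene *tost-1*, whose part in piRNA processing was not examined, fell by 0.84 and 0.49. Each named change of *prg-1*, *henn-1*, *tost-1* and *ife-3* passed the test (limma adjusted p = 0.000490 or less). Those of *tofu-6*, *pid-1* and *pid-3* also passed (limma adjusted p = 0.00180 or less).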

How the data were processed

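Small RNA and mRNA libraries of 3 genotypes with 3 replicates each were used. For small RNAs the authors deposited reads per 1000000 (RPM) to 2 decimals, made with tinyRNA at default settings and WormBase WS279. For mRNA they deposited normalized counts, a signal without a unit, made with fastp, RSEM, STAR and the same WormBase release and divided by DESeq2 size factors, and the authors tested counts with DESeq2. Here the RPM of all features were not whole multiples of 1 read, so no count test was run. For low piRNA values alone, 99.0 to 99.5% were whole multiples within the rounding, which gave the depths.

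Values were compared on the log2 scale after adding 1, by the moderated test of limma (3.58.1, under R 4.3.3) with a mean-variance trend, 9 libraries in 1 fit, features of 6 classes with a mean of at least 2 RPM, and Benjamini-Hochberg adjustment over all 7376. A call required an adjusted p under 0.05 and a log2 difference of 1. Values per library were compared by two-sided exact permutation. On simulated data with 200 of 7376 features changed 4-fold in both alleles, 186 were recovered in both, with 0 false calls in the comparison of *tcer-1(tm1452)* with wildtype. The simulated libraries shared the same depth and spread and none stood apart, so this gives no error rate for the real libraries. Python 3.11.15, numpy 2.4.6, pandas 2.3.3 and matplotlib 3.10.9 were used.

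Places came from Ensembl release 115 and sequences from RefSeq (WBcel235), by identifier; the authors' own coordinates were not used here. Among the piRNAs, 54 have 2 or more genomic copies (15 tested) and 6219 overlap another on their strand (840 tested), so reads may be shared among them.

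The piRNAs named were the 6 of highest mean; per allele the 6 largest falls and rises among calls whose libraries do not overlap wildtype; the 6 largest in both alleles by the smaller change; the 4 largest in either direction between alleles; those called in opposite directions; and the 4 of largest replicate SD. Members and lists were chosen with earlier results of these data known. Alternatives were pseudocounts of 0.5 and 5, no filter, a mean of 10 RPM, equal upper quartiles, equal miRNA or piRNA totals, median of ratios, an adjusted p under 0.01, the compared groups alone, no trend, the replicate number as a block, and each library left out. Counts by cluster, and scalings without *tcer-1(tm1452)* replicate 3, were added after the data had been seen.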

Additional observations from a re-analysis of the deposited data

Results flagged for a closer look

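The effect of *tcer-1* mutation differed between the alleles by a test of the difference itself for 69 piRNAs. Of those tested, 23 (1.20%) were at a lower and 46 (2.41%) at a higher level in *tcer-1(tm1452)*, below the 2.43 and 3.93% of all features. The fit without *tcer-1(tm1452)* replicate 3 gave 2 lower and 129 (6.75%) higher, against 2.2 and 4.75% of all features. With all libraries, the named ones that were higher were 21ur-7999, 21ur-8083, 21ur-669 and 21ur-6881, by 2.16, 1.98, 1.92 and 1.91 on the log2 scale. Without *tcer-1(tm1452)* replicate 3 they were higher by 1.93, 2.01, 1.80 and 1.70. The named ones that were lower were 21ur-6254, 21ur-3805, 21ur-3740 and 21ur-85, with differences of -1.66, -1.45, -1.41 and -1.39. Without that library these were -1.37, -1.09, -0.93 and -0.94, so that 21ur-3740 and 21ur-85 were then under the 2-fold threshold. The calls of 21ur-3740 and 21ur-85 were also lost without *tcer-1(glm27)* replicate 1 or 3, with limma adjusted p of 0.0502 to 0.0711. 21ur-3805 lies in the larger cluster and had 2.89, 2.49 and 0.75 RPM in *tcer-1(tm1452)* and 6.81, 6.59 and 7.17 RPM in *tcer-1(glm27)*, against 16.8, 12.4 and 16.4 RPM in wildtype. The cause of the differences was not tested.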

How the results depend on the processing

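Apart from the fit without *tcer-1(tm1452)* replicate 3, the share of all features called was not computed for the alternatives. Counts are given for *tcer-1(tm1452)* lower and higher, then *tcer-1(glm27)* lower and higher, where they moved by over 1.5 times from 290, 40, 82 and 2. With equal upper quartiles they were 143, 66, 23 and 5, with median of ratios 143, 66, 22 and 5, and with equal piRNA totals 164, 99, 39 and 5. With equal miRNA totals they were 829, 14, 281 and 0. A mean of 10 RPM gave 96, 10, 17 and 1, a pseudocount of 5 gave 92, 8, 21 and 1, and an adjusted p under 0.01 gave 167, 54 and 1 for all but *tcer-1(tm1452)* higher. The mean log2 scale factor of *tcer-1(tm1452)* and *tcer-1(glm27)* libraries differed from that of wildtype by 0.32 and 0.39 for upper quartiles and median of ratios. It differed by 0.59 and 0.31 for piRNA totals and by -0.39 and -0.40 for miRNA totals. Fitted differences moved by less at low levels, since 1 RPM was added after scaling. Added after the data had been seen, equal piRNA totals without *tcer-1(tm1452)* replicate 3 gave 116, 101, 40 and 5, and median of ratios without it gave 92, 152, 30 and 5.

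piRNAs lower in both alleles numbered 49 at an adjusted p under 0.01, 234 with equal miRNA totals, 33 with equal piRNA totals (31 without replicate 3), 20 with equal upper quartiles, 19 with median of ratios (25 without replicate 3), 16 at a mean of 10 RPM and 21 with a pseudocount of 5. Those higher in both numbered 1 with equal upper quartiles, median of ratios or a pseudocount of 0.5, 2 with equal piRNA totals with or without replicate 3, and 4 with median of ratios without it. Between the alleles, those lower numbered 6 at an adjusted p under 0.01, 11 with the compared groups alone, 9 at a mean of 10 RPM, 15 with no filter, 2 with a pseudocount of 5, 12 with equal piRNA totals without replicate 3 and 8 with median of ratios without it. Those higher numbered 70 with equal piRNA totals with or without replicate 3, 109 with median of ratios without it, 11 at a mean of 10 RPM and 9 with a pseudocount of 5.

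By cluster, piRNAs of the smaller one lower in *tcer-1(tm1452)* numbered 86 with median of ratios without replicate 3, 35 at a mean of 10 RPM and 59 with a pseudocount of 5. In *tcer-1(glm27)* they numbered 49 at an adjusted p under 0.01, 149 with equal miRNA totals, 38 with equal piRNA totals (39 without replicate 3), 22 with equal upper quartiles, 21 with median of ratios (29 without replicate 3), 16 at a mean of 10 RPM and 20 with a pseudocount of 5. Of the larger cluster, those lower in *tcer-1(tm1452)* numbered 41 at an adjusted p under 0.01, 73 with the compared groups alone, 670 with equal miRNA totals, 40 with equal piRNA totals (11 without replicate 3), 22 with equal upper quartiles or median of ratios (5 without replicate 3), 61 at a mean of 10 RPM, 72 with no filter and 32 with a pseudocount of 5. In *tcer-1(glm27)* they numbered 10 with the compared groups alone, 131 with equal miRNA totals, 1 at a mean of 10 RPM, and 0 with equal piRNA totals, equal upper quartiles, median of ratios or a pseudocount of 5. The cause was not tested.

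Leaving out each library in turn gave 139 to 503 lower and 31 to 88 higher in *tcer-1(tm1452)*, 57 to 94 and 1 to 3 in *tcer-1(glm27)*, 2 to 66 and 32 to 129 between the alleles, and 54 to 80 and 0 to 1 in both. The smaller cluster had 119 to 152 lower in *tcer-1(tm1452)* and 52 to 83 in *tcer-1(glm27)*, and the larger one 19 to 350 and 3 to 15. Without *tcer-1(tm1452)* replicate 1 or 2, 350 or 278 of the larger cluster fell. The number at 1 RPM or more in *tcer-1(tm1452)* minus wildtype was -440 with all libraries and 46.7 without replicate 3, over a range of -692 to 46.7, and in *tcer-1(glm27)* -474 to -343. The piRNA share differed by -1.90 to -0.547 and -1.35 to -0.817 percentage points, and the share of the smaller cluster by -4.88 to -4.63 and -3.99 to -3.83. *unc-130* was called higher in *tcer-1(glm27)* without *tcer-1(glm27)* or wildtype replicate 3 and with equal upper quartiles, which gave 0 to 1 and 1 pathway genes. With the replicate number as a block, *tcer-1(tm1452)* had 271 lower and 39 higher piRNAs and *tcer-1(glm27)* had 78 and 2, but samples of the same number did not deviate together (r of -0.54 to 0.39 over 9 pairs), so the numbers were not taken as pairs. No named piRNA reversed direction.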
